A study of Danio rerio with 9 samples.

Results

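Expression of 10 genes of the Notch pathway was examined in adult zebrafish ventricles with mutations in *vegfc* and *vegfd* and in control ventricles. The 10 genes were chosen by name, with earlier results of these data known, as 4 receptors, 4 ligands and 2 Hey target genes. They were found by symbol among the 16575 genes of the count table. The symbols *notch2*, *notch3*, *dll4*, *jag1a*, *jag1b*, *jag2b*, *hey1* and *hey2* each led to 1 identifier. *notch1a* and *notch1b* are both listed as *notch1*, so that these 2 receptors are given by identifier, which of them is which was not settled here, and the division of reads between them is uncertain. All 10 passed the authors' limit on low counts, and all are accounted for below.

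Notch receptors sit in the membrane and are activated by Delta and Jagged ligands on a neighbouring cell. A ligand exposes the receptor to cleavage, and the released intracellular domain joins the DNA-binding protein Rbpj to switch on genes of the Hey and Hairy families. In blood vessels, Dll4 and Notch1 receptors restrain sprouting and favour arterial identity, Notch3 acts mainly in the pericytes and smooth muscle cells of the vessel wall, and Hey2, first found in zebrafish as gridlock, takes part in the assembly of the aorta and in the ventricular muscle.

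RNA-seq was performed on ventricles of adult fish at 5 months of age. The 4 mutant libraries (mutant 6 to 9) came from *vegfc*(hy-/-);*vegfd*(-/-) fish, which carry 2 copies of a *vegfc* allele of reduced function and 2 copies of a *vegfd* null allele, and the 5 control libraries (control 1 to 5) from *vegfc*(+/+);*vegfd*(+/+) fish. The deposited description speaks of different lines of fish, so that the effect of the mutations and other differences between lines cannot be told apart, and whether libraries come from single fish is not given in the sources used here. Since nothing in the labels says how the samples of a group are related, p-values measure the spread between these samples only.

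Totals ranged from 23302636 to 33407859 counts in controls and from 27320575 to 33496006 counts in mutants. Levels are given as CPM, the count divided by the TMM-scaled library total and brought to a common size, and they are not compared between genes because they are not scaled by gene length. *vegfd* held 34 to 154 counts in controls and 4 to 18 in mutants (log2 fold change -2.82, edgeR adjusted p-value 0.0195), in the direction of the labels. *vegfc* held 35 to 122 counts in controls and 59 to 195 in mutants (log2 fold change 0.35, edgeR adjusted p-value 0.719), so its level does not set the genotypes apart. Markers of ventricular muscle were abundant, with *myl7* at 25207 CPM in controls and 19840 CPM in mutants. Control 2 had the lowest total and 684 genes with 0 counts, against 69 to 127 in the other controls. Where control 2 decided whether the genotypes overlapped, the values are given with and without it.

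The threshold was an adjusted p-value, here called FDR, of 0.05 in edgeR's quasi-likelihood F test over all genes. Genes that passed it are said to be called. None of the 10 Notch genes was, where 3.34% of all genes were (553 of 16575), and the lowest edgeR FDR among them was that of *notch3*, at 0.0511. At an unadjusted p-value under 0.05 there were 4 of the 10, *notch3*, *jag1a*, *jag1b* and *hey2*, all lower in mutants and 0 higher. Of all genes 20.9% met that limit, 9.87% lower and 11% higher. The genotypes did not overlap for 3 of the 10, *notch3*, *jag1b* and *hey2*, with the mutants below. Over all genes this held for 10.5%, with mutants below for 4.46% and above for 6.07%. A fitted level at least 2-fold lower was found for *jag1a* and *hey1*, that is 2 of the 10, against 6.62% of all genes. These 2 had the fewest counts of the 10, with means of 19.0 and 30.2. The fitted log2 fold change was below 0 for 7 of the 10, with a median of -0.36, whereas 51.3% of all genes were below 0 and their median was -0.01. The 10 genes were chosen with earlier results of these data known, so these shares describe them and do not test for an excess. Other tools called more of all genes. Of the 10, edgeR's likelihood ratio test called 1 (*notch3*), beside 8.19% of all genes, DESeq2 called 2 (*notch3* and *jag1a*), beside 10.1%, and limma-voom called 0, beside 3.96%.

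**Figure D1:**
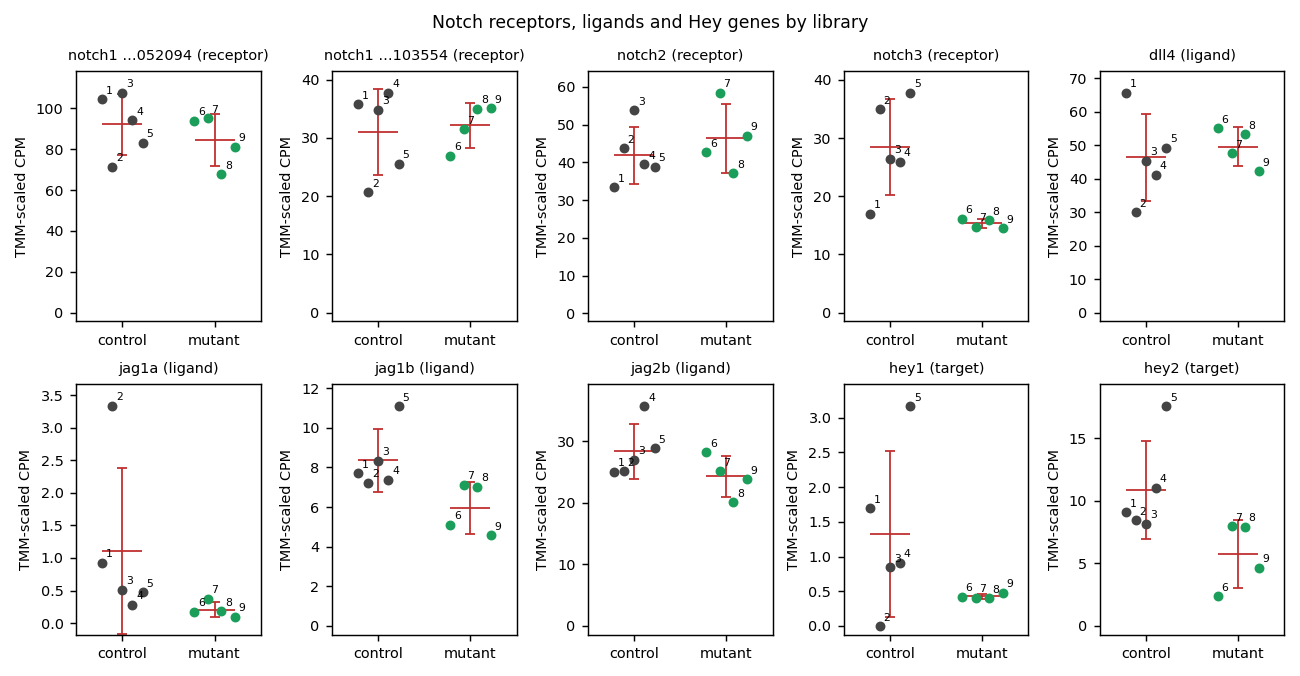
TMM-scaled CPM of each gene in the 5 control libraries (grey) and 4 mutant libraries (green), numbered by replicate, with the mean and SD of each genotype in red. For *notch3*, *jag1b* and *hey2* all mutant libraries lie under all control libraries, while the other genes overlap.

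The receptor *notch3* (ENSDARG00000052139), which marks the mural cells of vessels, held 17.0, 34.9, 26.5, 25.9 and 37.8 CPM in controls 1 to 5 and 16.2, 14.8, 15.9 and 14.5 CPM in mutants 6 to 9. The mutant libraries were tightly grouped, and control 1 lay just above them while the other controls lay far above. The means were 28.4 ± 8.24 CPM (SD, n = 5) and 15.3 ± 0.831 CPM (SD, n = 4). The log2 fold change was -0.89 ± 0.21 (SE), with a 95% interval from -1.36 to -0.42, and edgeR gave an FDR of 0.0511. Without control 1, the control nearest to the mutants, the log2 fold change was -1.03 and the edgeR FDR 0.0136. In the fits that each left out another library the FDR lay between 0.0781 and 0.126.

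Whole ventricles mix cell types, so fewer cells of a type and less RNA per cell cannot be told apart. Genes listed as markers of mural cells, in which *notch3* acts, mostly differed in the same direction. Their summed level was 603 to 806 CPM in controls and 379 to 544 CPM in mutants, without overlap. Of this sum *abcc9* alone held 197 to 291 CPM in controls and 72.1 to 177 CPM in mutants. The lack of overlap thus rests largely on that gene, and whether mural cells were its source in these ventricles was not tested. Of the 13 genes, 10 had a log2 fold change below 0 (median -1.02). Called lower were *abcc9*, *rgs5* and a smooth muscle myosin gene, *myh11* ENSDARG00000009782, with log2 fold changes of -1.24, -1.69 and -1.38. A gene of the same list, *tagln* ENSDARG00000045408, was called higher (1.41). *pdgfrb*, a pericyte receptor, had a log2 fold change of -0.42 and did not pass (edgeR FDR 0.415). Across the 9 libraries, r between *notch3* and the mural sum was 0.71, and 0.0778 for deviations from the genotype means, as a description. It was higher with the sum of venous markers (0.854, deviations 0.592) and of ventricular muscle markers (0.772, deviations 0.186). The association was thus not particular to the mural list. The part of mural cells in the level of *notch3* was not tested.

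**Figure D2:**
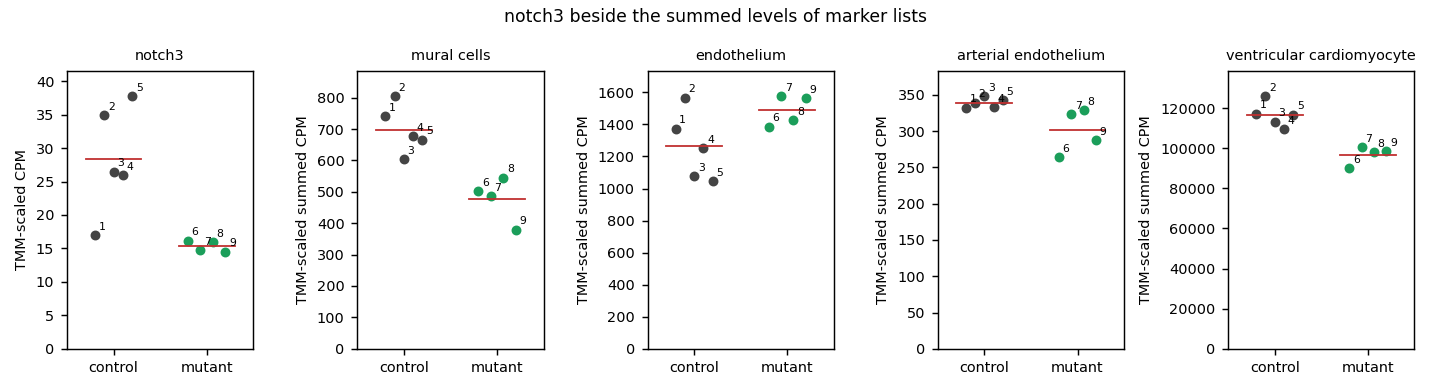
TMM-scaled CPM of *notch3* and summed CPM of marker lists of mural cells, endothelium, arterial endothelium and ventricular cardiomyocytes in each library, numbered by replicate, with genotype means in red. The mural, arterial and cardiomyocyte sums do not overlap between genotypes, nor does *notch3*, while the endothelial sum overlaps through control 2 alone. *abcc9* weighs heavily in the mural difference, *vwf* in the endothelial one and *gja5* in the arterial one.

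The other receptors did not pass the threshold. *notch1* ENSDARG00000052094 held 105, 71.4, 108, 94.1 and 83.2 CPM in controls and 94.0, 95.2, 67.8 and 81.3 CPM in mutants. Its lowest value was in mutant 8, the next in control 2, and the genotypes overlapped (log2 fold change -0.12 ± 0.16 SE, edgeR FDR 0.703). The second *notch1* gene, ENSDARG00000103554, held 35.8, 20.7, 34.8, 37.8 and 25.6 CPM in controls and 26.9, 31.5, 35.0 and 35.1 CPM in mutants.

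All 4 mutant values of ENSDARG00000103554 thus lay within the control range. Its log2 fold change was 0.05 ± 0.19 (SE), at an edgeR FDR of 0.903, and it was -0.06 without control 2. *notch2* (ENSDARG00000043130), a receptor of many tissues, held 33.3, 43.8, 53.8, 39.5 and 38.9 CPM in controls and 42.7, 58.5, 37.1 and 47.0 CPM in mutants. Its highest value was in mutant 7 and its lowest in control 1. The log2 fold change of *notch2* was 0.15 ± 0.17 (SE), at an edgeR FDR of 0.680. The 95% intervals of these 3 receptors ran from 0.72-fold to 1.17-fold, from 0.777-fold to 1.39-fold and from 0.849-fold to 1.44-fold. For each of them a change of the fitted size of *notch3* (0.54-fold) lies outside. The interval of *notch3* itself, 0.389-fold to 0.749-fold, overlaps that of *notch1* ENSDARG00000052094. Differences between receptors were not tested.

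Among the ligands, *dll4* (ENSDARG00000070425), the Delta ligand of arterial and sprouting endothelium, held 65.7, 30.0, 45.4, 41.2 and 49.3 CPM in controls and 55.1, 47.6, 53.2 and 42.2 CPM in mutants. Controls 1 and 2 were the highest and the lowest of all libraries, and the mutants lay between them. Between genotypes *dll4* had a log2 fold change of 0.10 ± 0.20 (SE; edgeR FDR 0.835), and -0.02 without control 2. The 95% interval ran from 0.784-fold to 1.46-fold.

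*jag1b* (ENSDARG00000013168), a Jagged ligand, held 7.73, 7.22, 8.35, 7.39 and 11.1 CPM in controls and 5.11, 7.13, 7.02 and 4.58 CPM in mutants. The genotypes did not overlap, but mutants 7 and 8 lay close under the lowest control. *jag1b* had a log2 fold change of -0.49 ± 0.20 (SE), or 0.713-fold, at an edgeR FDR of 0.203, which is short of the threshold.

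Its paralog *jag1a* (ENSDARG00000030289) was counted rarely. The counts were 30, 73, 18, 9 and 16 in controls and 5, 12, 5 and 3 in mutants, that is 0.927, 3.34, 0.509, 0.283 and 0.474 CPM against 0.175, 0.377, 0.180 and 0.0954 CPM. Mutant 7 lay above control 4, so the genotypes overlapped, and control 2 was far above all other libraries. Its fitted log2 fold change was -2.37 ± 0.82 (SE), with a wide 95% interval from -4.19 to -0.56, and edgeR gave an FDR of 0.136. Without control 2 it was -1.39, at an edgeR FDR of 0.23. *jag1a* lies on the same chromosome as *vegfc* in the GRCz12tu annotation. Of the 3 genes on either side of it in the table, among them *psen2*, none passed the threshold, and their log2 fold changes ran from -0.19 to 0.12. The same look-up, of 3 genes on either side of each other member, gave 1 called gene, where 3.34% of all genes were called. It was *wdr27*, 2 rows from *jag1b*, called lower without overlap (log2 fold change -4.89, edgeR FDR 0.0472). Effects of linkage were not tested.

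*jag2b* (ENSDARG00000021389), the fourth ligand, held 25.0, 25.1, 27.0, 35.8 and 28.9 CPM in controls and 28.2, 25.1, 20.1 and 23.8 CPM in mutants. Mutants 8 and 9 were the lowest, and mutants 6 and 7 lay within the control range. Its fitted log2 fold change was -0.22 ± 0.15 (SE; edgeR FDR 0.436), with a 95% interval from 0.68-fold to 1.08-fold.

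Both Hey genes, transcriptional repressors switched on by Notch, had lower means in mutants. *hey2* (ENSDARG00000013441) held 9.09, 8.46, 8.18, 11.1 and 17.6 CPM in controls and 2.38, 7.98, 7.92 and 4.67 CPM in mutants. The gap between the genotypes was narrow, since mutants 7 and 8 lay just below control 3, while mutants 6 and 9 were much lower and control 5 stood highest. The means were 10.9 ± 3.92 CPM (SD, n = 5) and 5.74 ± 2.72 CPM (SD, n = 4). For *hey2* the fitted log2 fold change was -0.92 ± 0.37 (SE), with a 95% interval from 0.301-fold to 0.924-fold, and edgeR gave an FDR of 0.185.

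*hey1* (ENSDARG00000070538) was counted 55, 0, 30, 29 and 107 times in controls and 12, 13, 11 and 15 times in mutants. This gave 1.70, 0, 0.849, 0.912 and 3.17 CPM against 0.420, 0.408, 0.396 and 0.477 CPM. The 4 mutant libraries agreed closely, whereas the controls were spread on both sides of them: control 2 had no count, which allows up to 0.137 CPM (a limit of 3 counts, for counting error only), and the other 4 controls were all above every mutant. For *hey1* the fitted log2 fold change was -1.64 ± 0.88 (SE), with a 95% interval from -3.59 to 0.31, and edgeR gave an FDR of 0.315. Without control 2 it was -1.95, the genotypes no longer overlapped, and the edgeR FDR was 0.0662. Without control 5, the highest library, it was -1.03 and the edgeR FDR 0.585.

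**Figure D3:**
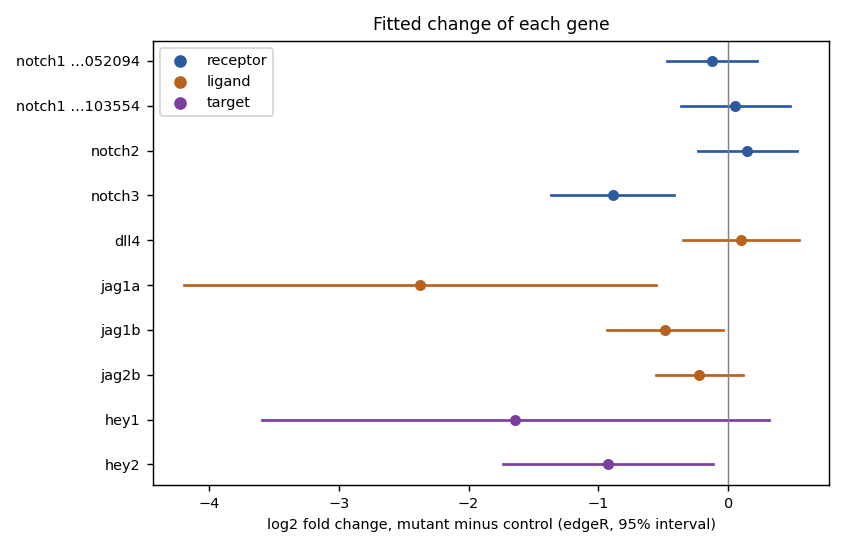
Fitted log2 fold changes (points, mutant minus control) with 95% intervals (lines) of the 4 receptors (blue), 4 ligands (orange) and 2 Hey genes (purple) by edgeR. The intervals of *notch3*, *jag1a*, *jag1b* and *hey2* lie below 0 without adjustment over all genes, and those of the rarely counted *jag1a* and *hey1* are the widest.

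The spread between libraries differed much between these genes. The coefficient of variation in controls was 15.6% for *jag2b*, 16.3% for *notch1* ENSDARG00000052094, 18.2% for *notch2* and 19.1% for *jag1b*, and 115% for *jag1a* and 90.0% for *hey1*. In mutants it was lowest for *notch3*, at 5.42%, against 29.0% in controls. Control 2 was the lowest control for 5 of the 10 genes and the highest for *jag1a* alone. Control 5 was the highest control for *notch3*, *jag1b*, *hey1* and *hey2*.

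Ratios of related genes within a library do not depend on scaling, and 3 were tested with two-sided exact permutation tests over all 126 assignments of genotype to libraries, where the smallest possible p-value is 0.00794. *jag1a* made up 10.7%, 31.6%, 5.75%, 3.69% and 4.09% of the counts of both *jag1* paralogs in controls and 2.04% (mutant 9) to 5.02% (mutant 7) in mutants. The log2 ratio of *jag1a* to *jag1b* differed by -1.40 (exact permutation p-value 0.0873, and 0.262 after adjustment over the 3 ratios), and by -0.82 without control 2. *notch1* ENSDARG00000052094 made up 71.4% to 77.5% of the counts of both *notch1* genes in controls and 66.0% to 77.7% in mutants, with a log2 difference of -0.20 (exact permutation p-value 0.302, adjusted 0.453).

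The third ratio, *hey1* to *hey2*, differed by 0.50 on the log2 scale (exact permutation p-value 0.913, adjusted 0.913). It turned to -0.63 without control 2, in which *hey1* had no count. None of the 3 ratios was thus distinguished between the genotypes.

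**Figure D4:**
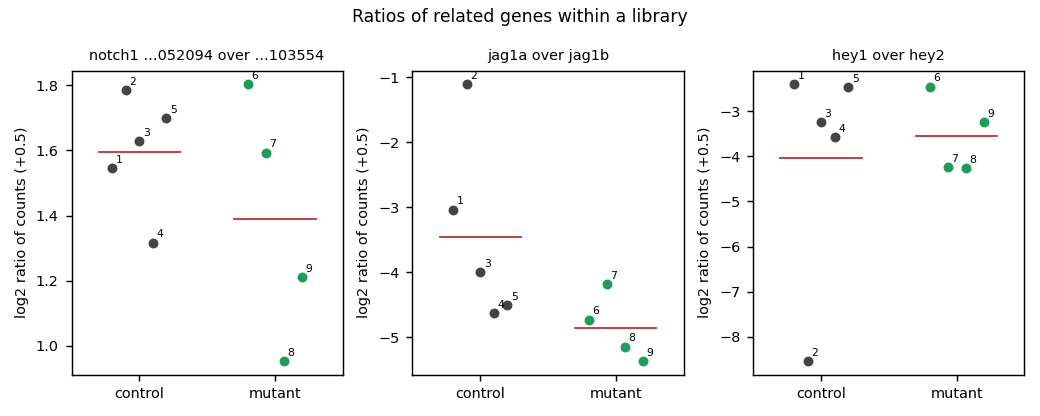
Log2 ratio of counts (0.5 added to each) within each library for the 2 *notch1* genes, *jag1a* over *jag1b* and *hey1* over *hey2*, in controls (grey) and mutants (green), with genotype means in red. Control 2 holds the highest *jag1a* to *jag1b* ratio (-1.11) and the lowest *hey1* to *hey2* ratio (-8.54).

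Correlations of log2(CPM + 1) over the 9 libraries are given as a description, since all genes of a library share its depth and scaling. *jag1b* and *hey2* went together (Pearson's r = 0.892), and their deviations from the genotype means did as well (r = 0.797). In both, control 5 was highest and mutants 6 and 9 lowest. Over all 45 pairs of the 10 genes, r of the deviations was above 0 for 24, with a median of 0.044. *notch3* and *notch1* ENSDARG00000103554 went in opposite directions (r = -0.713 of the deviations).

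Since none of the 10 was called, the genes most alike in pattern were looked up for *dll4* and *hey2*, among 12542 other genes whose mean reached 50 counts. For *dll4* they were *mettl3*, *mex3b* and *ndufaf5*, with r from 0.931 to 0.946 over 9 libraries. For *hey2* they were *tada2b*, si:dkey-260j18.2 and *tmem102*, with r from 0.953 to 0.960. Each is among the highest of 12542 values of r over only 9 libraries, a search in which high values can arise by chance. A relation to *dll4* or *hey2* was not tested.

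The rest of the pathway was taken from a list of 119 symbols in 8 groups, for which 84 genes were measured. Of these, 1 was called higher and 0 lower in mutants by edgeR's quasi-likelihood test, against 2.13% of all genes called higher and 1.21% called lower. At an unadjusted p-value under 0.05, 3 of the 84 were higher and 10 lower, where 11% of all genes were higher and 9.87% lower. The 3 include *sharpin*, whose place in the pathway was not checked. The median log2 fold change was -0.10, with 32 above and 52 below 0, beside a median of -0.01 and 51.3% below 0 for all genes. The called gene was *dtx3* (ENSDARG00000025766), of the Deltex family of ubiquitin ligases, some of which bind the Notch intracellular domain. It held 8.62, 3.84, 4.70, 6.60 and 2.78 CPM in controls and 39.1, 24.9, 15.7 and 13.1 CPM in mutants.

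Every mutant library lay above every control for *dtx3*. The means were 5.31 ± 2.32 CPM (SD, n = 5) and 23.2 ± 11.7 CPM (SD, n = 4), and the log2 fold change was 2.13 ± 0.39 (SE), at an edgeR FDR of 0.0202. The call was lost without control 3 (edgeR FDR 0.0518), mutant 6 (0.0513) or mutant 7 (0.0542). Among the other 4 Deltex genes measured none passed.

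Of the 5 other ligands measured none passed. The Delta ligand *dlc* (ENSDARG00000002336) had the smallest p-value of them, with 15.8, 53.8, 18.6, 13.4 and 28.0 CPM in controls and 9.07, 8.04, 11.1 and 15.5 CPM in mutants. Control 2 was by far the highest and mutant 9 lay within the control range. The log2 fold change was -1.25 ± 0.41 (SE; edgeR FDR 0.121), and -0.80 without control 2. It passed the threshold under edgeR's likelihood ratio test (adjusted p-value 0.0407) and DESeq2 (adjusted p-value 0.0243).

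The machinery that sends, cuts and reads the signal held no called gene. Of 13 genes for ligand endocytosis and Numb, the smallest p-value was that of *epn2*, an epsin that draws ligands into the cell, at 42.1 ± 9.41 CPM (SD, n = 5) and 30.1 ± 2.63 CPM (SD, n = 4). For *epn2* the genotypes did not overlap, control 2 was highest at 58.8 CPM, the other controls held 36.0 to 39.4 CPM, and edgeR gave an FDR of 0.132. Of 11 glycosyltransferases, which decorate the receptors with sugars, 7 had a log2 fold change above 0 and the median was 0.23. *poglut3* had the smallest p-value (log2 fold change 0.50, edgeR FDR 0.486). The 10 proteases had a median of 0.00, led by a *furin* gene (ENSDARG00000070971, log2 fold change 0.38, edgeR FDR 0.294), whose product cuts the receptor on its way to the surface.

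In the nucleus, no gene passed either. Of 13 genes of the nuclear complex, 10 had a log2 fold change below 0, with a median of -0.23. The 2 genes listed as *rbpj*, whose division of reads is uncertain, had log2 fold changes of -0.70 (ENSDARG00000052091) and -0.11 (ENSDARG00000003398), with edgeR FDR values of 0.223 and 0.736. Of 18 genes listed as co-repressors, *spen* (ENSDARG00000074332) had the smallest p-value, at 56.6 ± 6.51 CPM (SD, n = 5) and 43.9 ± 3.60 CPM (SD, n = 4), again with no overlap (edgeR FDR 0.129). The list also holds *sharpin* (log2 fold change 0.41, edgeR FDR 0.197), whose place in the Notch pathway was not checked. Of 9 other Hairy-type and Nrarp genes, which include direct targets of Notch, 4 were above and 5 below 0 with a median of -0.12, and the smallest p-value was that of *bhlhe40* (log2 fold change -0.75, edgeR FDR 0.213).

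**Figure D5:**
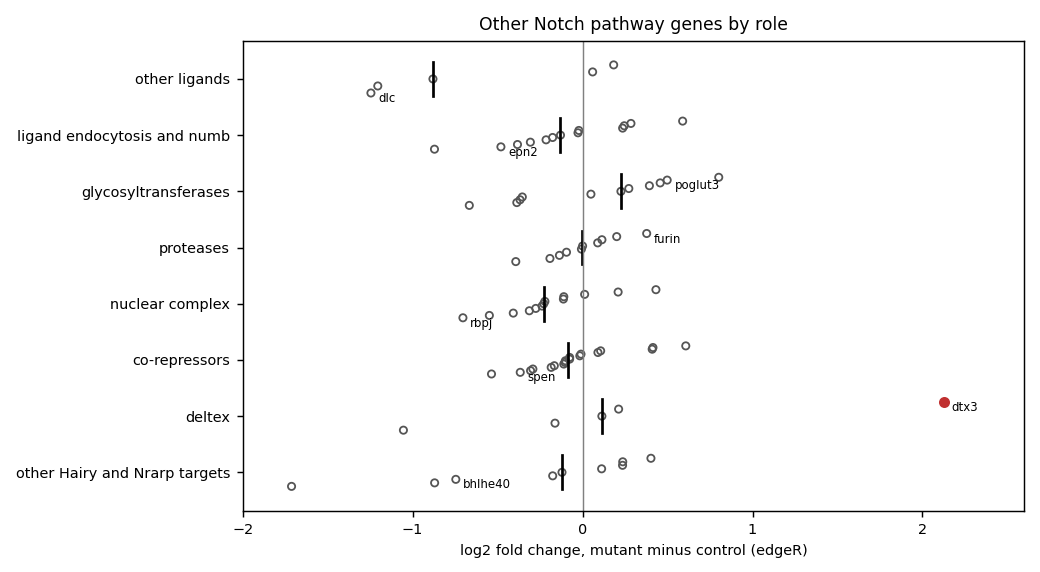
Log2 fold change (mutant minus control, edgeR) of each of the 84 genes listed for the rest of the Notch pathway, by role, with the median of each group as a bar. The red point is *dtx3*, the one gene past an adjusted p-value of 0.05, and the gene with the smallest p-value of each group is labelled.

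Of the general endothelial markers, 1 was called in each direction. The summed level of 23 genes was 1045 to 1566 CPM in controls and 1387 to 1578 CPM in mutants, with 10 above and 13 below 0 and a median of -0.11. The overlap of the sums came from control 2 (1566 CPM) alone, since the other 4 controls, at 1045 to 1374 CPM, lay below every mutant. Of these sums *vwf* alone held 82.4 to 150 CPM in controls and 196 to 350 CPM in mutants. The separation without control 2 thus rests largely on that gene. *vwf* was called higher (log2 fold change 1.23) and *robo4* lower (-1.58). The defining genes *kdrl* and *cdh5* had log2 fold changes of 0.21 each and did not pass (edgeR FDR values 0.502 and 0.415). Of 14 arterial genes none passed (4 above and 10 below 0, smallest p-value *gja4*, a gap junction gene, log2 fold change 0.87, edgeR FDR 0.0835). Their sum was 333 to 349 CPM in controls and 264 to 329 CPM in mutants, without overlap. The gap was narrow, from 332.6 CPM in control 1 to 329.0 CPM in mutant 8. The genes listed as *gja5* weighed heavily in the difference. Mean levels in controls and mutants were 50.9 and 30.1 CPM for ENSDARG00000069450, and 78.7 and 59.1 CPM for ENSDARG00000040065.

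*hey2* followed the arterial sum (r = 0.886 over 9 libraries and 0.784 of the deviations from genotype means, as a description), with mutant 6 lowest in both. This was not particular to the pair. *hey2* also went with the venous sum (r = 0.774, deviations 0.533), and *jag1b* with the arterial sum (r = 0.836, deviations 0.674). Nor was it limited to vessel lists. For *hey2*, r was 0.723 with the ventricular muscle sum (deviations 0.366) and 0.261 with the endocardial sum (deviations 0.687). With the atrial sum it was -0.716 (deviations -0.642). The summed level of 9 ventricular muscle genes was also lower in mutants without overlap, at 90094 to 100522 CPM against 109568 to 126070 CPM. Of these genes, 8 were below 0 and *irx1*, a homeobox gene, was called lower (log2 fold change -1.75). No gene of these lists was at 0 in all libraries. The part of cell composition in the values of *jag1b* and *hey2* was not tested.

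Among the other cell types, 1 of 10 venous genes, *flt4*, which encodes a receptor for Vegfc, was called lower (log2 fold change -2.98). The venous sum was 123 to 199 CPM in controls and 98.3 to 105 CPM in mutants, without overlap. In this difference *aplnrb* (13.5 to 49.5 against 3.71 to 9.84 CPM, edgeR FDR 0.0502) and *nr2f2* (9.62 to 19.5 against 2.45 to 9.29 CPM, edgeR FDR 0.0567) weighed more than *flt4* (1.72 to 4.14 against 0.127 to 0.756 CPM). The paper reports that the ventricles of these mutants lack lymphatic vessels. The part of lymphatic cells in the venous sum was not tested. Of 9 endocardial genes, *klf4* was called higher (3.44), with sums of 259 to 344 CPM and 254 to 486 CPM. Of 6 epicardial genes, *tbx18* was called lower (-1.58), with sums of 82.4 to 211 CPM and 100.1 to 136 CPM, where control 2 held the 211 CPM and the other controls at most 129.7 CPM. These sums of endocardium and epicardium overlapped between genotypes.

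No gene was called in 4 lists. The 4 genes of bulbus smooth muscle, the outflow chamber, summed to 15.8 to 28.3 CPM in controls and 9.83 to 22.8 CPM in mutants (smallest p-value *mylk*, log2 fold change -0.88, edgeR FDR 0.0761). Here too the overlap came from control 2 (15.8 CPM) alone, since the other controls, at 24.6 to 28.3 CPM, lay above every mutant. The sums of atrial, leukocyte and erythrocyte genes overlapped with and without control 2. The 5 atrial genes summed to 353 to 667 CPM and 478 to 943 CPM. The smallest p-value was that of *myh6* ENSDARG00000079564 (log2 fold change 0.53, edgeR FDR 0.0811). The other gene listed as *myh6*, ENSDARG00000090637, varied widely, at 2.24 to 268 CPM in controls and 15.8 to 515 CPM in mutants (edgeR FDR 0.953). The part of atrial tissue in these libraries was not tested. Leukocyte genes summed to 89.3 to 217 CPM and 70.4 to 277 CPM (*lck*, -1.37, edgeR FDR 0.208), and erythrocyte genes to 706 to 2537 CPM and 788 to 2995 CPM (*gata1a*, -0.41, edgeR FDR 0.708).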

How the data were processed

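RNA was extracted from fresh ventricles and stranded poly(A) libraries were sequenced as read pairs. The authors trimmed reads with Skewer, aligned them with STAR 2.5.2a to GRCz11 and counted them with featureCounts 1.5.0 on the annotated strand with a mapping quality of at least 20, keeping genes with a mean of at least 10. The deposited values are raw counts per gene and library, with no normalization. Low-quality alignments were dropped, so near-identical paralogs may lose counts.

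Identifiers were paired with symbols from a gene name table (95.4% of 16575), in which some paralogs share one symbol. The 10 genes were read from 1 fit over the whole table: TMM scaling and a two-sided quasi-likelihood F test in edgeR 4.0.16 (legacy form, R 4.3.3), with Benjamini-Hochberg adjustment over all genes, a threshold of 0.05 and no covariate. The SE is the size of the log2 fold change over the square root of F. The members and lists were chosen with earlier results of these data known. Named were all 10 genes, called genes of the other Notch groups and of the marker lists, or else the one with the smallest p-value. *pdgfrb*, *kdrl*, *cdh5*, *myl7*, *psen2*, *wdr27*, *sharpin*, *aplnrb* and *nr2f2* were chosen after their values were seen. So were *tbx20*, the *gja5* genes and the second *rbpj* and *myh6* genes. Alternatives used DESeq2 1.42.0 and limma 3.58.1, other scalings and filters, covariates and fits without each library. Marker sums without control 2 were added after the data were seen. The fit was tested on simulated data.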

Additional observations from a re-analysis of the deposited data

Results flagged for a closer look

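The spacing of values within a genotype was examined in 26 sets (13 quantities in 2 genotypes), and in 3 of them one library stood apart from the rest. By chance 1 in 20 sets would, or about 1.3. *jag1a* stood out in control replicate 2, at 3.34 CPM, against 0.283 to 0.927 CPM in the other controls. *jag1b* stood out in control replicate 5, at 11.1 CPM, against 7.22 to 8.35 CPM. The log2 ratio of *hey1* to *hey2* stood out in control replicate 2, at -8.54, where *hey1* had 0 counts.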

How the results depend on the processing

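No paired analysis was possible because the genotypes share no replicate numbers. Of the 10 genes, 1 was called lower (*notch3*) under the likelihood ratio test, the robust fit and the filter on a mean of 50 counts, and 2 (*notch3* and *jag1a*) under DESeq2. With a library left out, 0 to 1 was called lower and 0 higher. Of the other pathway genes, 1 was called lower (*dlc*) under the likelihood ratio test and DESeq2, and 0 were called higher with the endothelial sum as a covariate (*dtx3*, log2 fold change 2.03 beside 2.13, SE 0.509 beside 0.387) or at a threshold of 0.01. With a library left out, 0 to 1 was called higher.

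Over all genes, the likelihood ratio test called 817 higher and 540 lower, DESeq2 929 and 737, a threshold of 0.01 68 and 19, and the endothelial covariate 67 and 54. With a library left out the calls were 136 to 322 higher and 60 to 170 lower. The sums of mural and of ventricular muscle markers, chosen as covariates after seeing the data, do not overlap between genotypes, so that such a fit has little left of the genotype. They left 0 of the 10 genes called, as in the main fit, and 0 other pathway genes. Over all genes they left 6 higher and 20 lower (mural) or 2 higher and 0 lower (muscle).

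Signs reversed for *notch1* ENSDARG00000103554 under limma-voom (-0.0135), without control replicate 2 (-0.0597) or 5 (-0.005), the range with one library omitted being -0.0597 to 0.136, and with the mural (-0.27) and muscle (-0.41) sums. They reversed for *notch2* with the mural sum (-0.17), for *dll4* with the muscle sum (-0.40) and without control replicate 2 (-0.025, the highest such value being 0.255), for *jag1a* with the mural (0.66) and muscle (1.59) sums, and for *dlc* with the muscle sum (0.73). The ratio of *hey1* to *hey2* reversed as a difference of medians (-0.50) and lay between -0.63 (without control replicate 2) and 0.91 when one library was omitted. With the endothelial sum, *notch3* had a log2 fold change of -0.81 and *hey1* had -0.31. With the mural sum, which follows genotype, *notch3* had -0.78 (SE 0.418 beside 0.213 in the main fit, edgeR FDR 0.656). Apart from the covariates that follow genotype, the causes were not tested. *notch3*, *jag1b*, *jag2b*, *hey1* and *hey2* had a log2 fold change below 0 under every alternative that gave a value (the filter on a mean of 50 counts gave none for *jag1a* and *hey1*). So did *notch1* ENSDARG00000052094, whose edgeR FDR with all libraries was 0.703. *jag1a* and *hey1* had means of 19.0 and 30.2 counts, and edgeR's fitted coefficients of variation between libraries were 75.8% and 83.2%.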
